A study of Bos taurus with 10 samples.

Results

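The blastocoel is the fluid-filled cavity of the blastocyst, and 8 genes linked to its formation were followed here in bovine embryos. They encode β subunits of the sodium pump (*ATP1B1*, *ATP1B2*, *ATP1B3*), water channels (*AQP3*, *AQP8*, *AQP9*, *AQP11*) and the sodium-proton exchanger *SLC9A3*. The genes were chosen by symbol for their part in cavitation, with earlier results of these data known. Of the 8 genes, 7 had a row among the 20112 genes of the table, and *AQP8* is not analysed here. RNA was sequenced from 5 WT and 5 *SOX2* KO early blastocysts of *Bos taurus*, with 1 library for each embryo. All 10 were injected as zygotes with mRNA for BE3, a cytosine base editor, and the *SOX2* KO embryos also got sgRNAs against *SOX2*, so WT here means injected with the editor mRNA without a guide. The labels give an age of 7.0 days after fertilization, whereas the text of the study gives a slightly later time, and which of them holds was not settled here. The study reports that it genotyped each sequenced blastocyst from part of its cDNA, and the genotype was not read again here.

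In the trophectoderm, the outer epithelium of the blastocyst, the sodium pump on the basolateral membrane moves sodium inward toward the cavity, and water follows the salt through aquaporins. The pump is built from a catalytic α subunit, a β subunit that carries it to the membrane, and often an FXYD protein that tunes its ion affinity. Sodium enters the cell on the apical side through carriers such as sodium-proton exchangers, and tight junctions keep the fluid from leaking back between the cells.

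Reads on genes numbered 2223670 to 5134855 per WT and 2578284 to 4337342 per *SOX2* KO embryo. Values are normalized read counts, in which reads were scaled by a DESeq2 size factor for each embryo. They are not corrected for transcript length, so levels of different genes were not ranked. A gene was called changed where the limma adjusted p was at most 0.05 and the fold change, on the scale of log2(normalized read count + 1), was at least 2 or at most 0.5. The ribosomal RNA gene *RN18S1* had a share of 26.4% to 37.0% among reads of WT embryos and of 32.5% to 45.0% among those of *SOX2* KO embryos (exact permutation test, two-sided, p = 0.0635). More genes had a read in *SOX2* KO (17987 to 19813) than in WT embryos (15919 to 18092; exact permutation p = 0.0159). *SOX2* had 78.2 ± 14.1 normalized read counts in WT and 56.6 ± 23.2 in *SOX2* KO embryos (SD, n = 5 each; limma adjusted p = 0.167). A stop codon need not remove the transcript, so this level does not check the labels. The sum of 14 trophectoderm markers lay between 27448 and 40873 in WT and between 38485 and 52575 in *SOX2* KO embryos. Most of it came from *KRT8* (group means 17496 and 22437, WT first) and *KRT18* (9100 and 15124). Other markers were low, as *CDX2* ranged from 19.5 to 73.8 and *TFAP2A* from 4.97 to 48.5 across all embryos, and *IFNT2* was at 0 in ko4. Among the 14 markers 2 were called higher, where 8.93% of all 20056 tested genes were called higher and 1.16% lower. The log2 fold change was above 0 for 13 of them, and *TFAP2C* went the other way (-0.49, limma adjusted p = 0.0352), short of 2-fold. Of 10 epiblast markers 6 were called lower, and of 9 primitive endoderm markers 3 were called lower. Cumulus cell markers were low, with a sum between 32.6 and 84.5 in WT and between 57.0 and 98.0 in *SOX2* KO embryos for 7 genes, none called by limma and none at an adjusted p of at most 0.05. The lineage differences run along with the group, and in whole embryos fewer cells of a type and less RNA per cell cannot be told apart.

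Of the 7 genes, *SLC9A3* was called, and it was higher in *SOX2* KO embryos. Against the 8.93% of all tested genes called higher, 1 of 7 says nothing of the list. The β subunit *ATP1B3* was 1.35 times as high in *SOX2* KO as in WT embryos by the group means, with no overlap between the groups, but it did not pass either threshold. *ATP1B1*, *ATP1B2*, *AQP3*, *AQP9* and *AQP11* overlapped between the groups and were not called. The median log2 fold change was 0.03 over the 7 genes and 0.25 over all tested genes. Under the other scalings tried, the median of all genes ranged from -0.02 to 0.34. *ATP1B3*, *AQP9* and *SLC9A3* lay above the 0.25, and the other 4 below it.

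**Figure D1:**
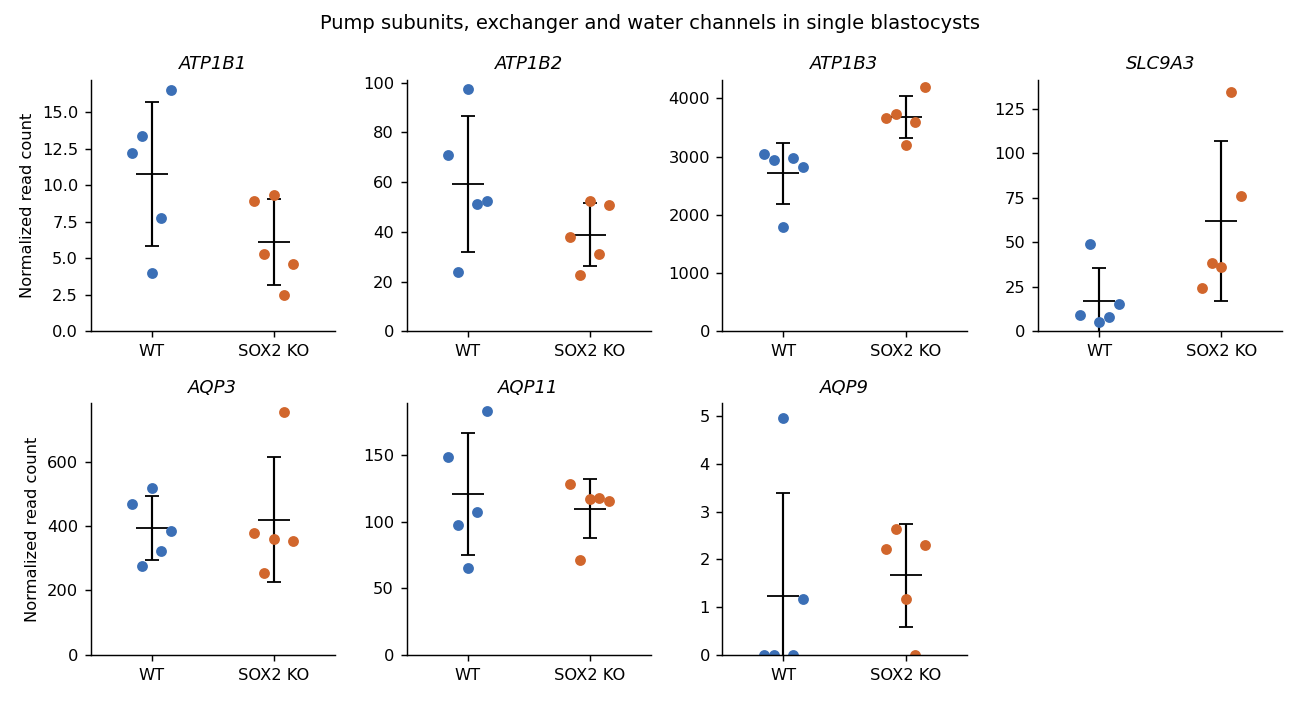
Normalized read count (linear axis from 0) of the 7 genes in each WT and *SOX2* KO embryo; points are embryos, the long dash is the mean and the bar is the SD (n = 5 each). *ATP1B3* lies between 1786 and 3049 in WT and between 3193 and 4201 in *SOX2* KO embryos, whereas the other 6 genes overlap between the groups.

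Among the β subunits, *ATP1B3* carried most of the reads, with 16376 in WT and 16879 in *SOX2* KO embryos, against 67 and 27 for *ATP1B1* and 362 and 178 for *ATP1B2*. *ATP1B3* showed 3049, 2947, 1786, 2970 and 2819 normalized read counts in nc1 to nc5, the WT embryos, and 3658, 3726, 3193, 3600 and 4201 in the *SOX2* KO embryos ko1 to ko5. The lowest *SOX2* KO embryo, ko3, was above the highest WT embryo, nc1, and nc3 lay well below the other WT embryos. The means were 2714 ± 525 and 3676 ± 359 (SD, n = 5 each), a log2 fold change of 0.46 ± 0.18 (SE) with a 95% interval of 0.08 to 0.83 and an adjusted p of 0.0885. Groups without overlap were found for 9.17% of all tested genes. Under scaling by the median log2 ratio of well read genes the adjusted p was 0.0236, under quantile normalization 0.0363, without *RN18S1* in the totals 0.0411 and with DESeq2 0.0470, while the fold stayed under 2 in every setting. In other settings the adjusted p rose, to 0.191 under equal totals, 0.184 with edgeR and 0.238 with the share of *RN18S1* as a covariate. With embryos left out it ran from 0.0697 to 0.199. Genes read at least 1000 times on average, of which 334 were tested, had a median log2 fold change of -0.04.

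*ATP1B1* encodes the β subunit that most epithelia use, yet few of its reads were found. Its normalized read counts were 12.2, 13.3, 3.98, 7.77 and 16.5 in nc1 to nc5 and 8.91, 5.28, 9.30, 2.46 and 4.61 in ko1 to ko5. Embryos of the groups overlap between 3.98 and 9.30. The log2 fold change was -0.71 ± 0.49 (SE; adjusted p = 0.327), with a 95% interval of -1.74 to 0.32, so neither a halving nor an unchanged level lies outside it. In the current RefSeq annotation the gene overlaps *NME7*, which had 11.5 to 41.3 normalized read counts per embryo, and *LOC112441946*, which had no row. The strand setting of the counting and its handling of overlaps were not given in the sources used here. Reads of *ATP1B1* could therefore be shared with these genes or left out.

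*ATP1B2*, the β subunit known from glia and neurons, had normalized read counts of 71.0, 23.7, 97.4, 51.3 and 52.5 in nc1 to nc5. In ko1 to ko5 it had 37.9, 22.4, 52.3, 31.2 and 50.7. Apart from nc2, which lay close to the lowest *SOX2* KO embryo, the WT embryos lay near or above the top of the *SOX2* KO range. The log2 fold change was -0.52 ± 0.32 (SE; 95% interval -1.20 to 0.16; adjusted p = 0.273). The log2 fold changes of *ATP1B1* and *ATP1B2* were below 0 and that of *ATP1B3* above 0 in every setting tried.

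*ATP1B2* and *ATP1B3* pointed in opposite directions. Their ratio was taken within each embryo, where the size factor has almost no part. The log2 ratio of *ATP1B2* to *ATP1B3* was -5.61 ± 0.97 in WT and -6.58 ± 0.52 in *SOX2* KO embryos (SD, n = 5 each). It ranged from -6.90 in nc2 to -4.18 in nc3 among WT embryos and from -7.31 in ko2 to -5.90 in ko3 among *SOX2* KO embryos. The groups overlap, and the difference of -0.98 did not reach a p of 0.05 (exact permutation test, two-sided, p = 0.0873). Adjusted over 2 ratios this p was 0.175, and the smallest p the test allows is 0.00794. Without nc2 the difference was -1.30 (exact permutation p = 0.0159), so that embryo decides on which side of 0.05 the test falls.

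Among relatives of the sodium pump, *ATP12A*, the catalytic subunit of the non-gastric H/K pump, had 36.8 ± 12.1 normalized read counts in WT and 55.7 ± 21.0 in *SOX2* KO embryos (SD, n = 5 each; adjusted p = 0.179). *ATP1A4*, the catalytic subunit of sperm, was called higher (adjusted p = 0.0147) but barely read, with 2 reads in the 5 WT and 20 in the 5 *SOX2* KO embryos. Of the 8722 tested genes this sparse, with a mean under 10, 14.1% were called higher. With the share of *RN18S1* as a covariate it was not called (adjusted p = 0.204), nor was it under quantile normalization (adjusted p = 0.134) or, for its fold, with a pseudocount of 5. No fold is given for it, because the WT embryos held no more than 3 reads together.

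Among the FXYD regulators, 5 were tested, and *FXYD6* was called lower and none was called higher, where 1.16% of all tested genes were called lower. *FXYD6* encodes a modulator of the pump best known from brain. It fell from 54.3 ± 15.3 normalized read counts in WT to 22.4 ± 4.07 in *SOX2* KO embryos (SD, n = 5 each; log2 fold change -1.22, SE 0.27, adjusted p = 0.00656). Its lowest WT embryo had 41.5 and its highest *SOX2* KO embryo 26.7, and the call held in all settings run. *FXYD4*, which raises the sodium affinity of the pump in kidney and colon, had 704 ± 240 in WT and 1127 ± 204 in *SOX2* KO embryos. The log2 fold change of *FXYD4* was 0.72 (SE 0.20; adjusted p = 0.0238), past the threshold on p but not on the fold, and the groups overlap. It missed the threshold on p with edgeR (adjusted p = 0.0615) and with the share of *RN18S1* as a covariate (0.311). The same held without nc5, ko3 or ko5 (adjusted p = 0.0637, 0.0581 and 0.0761). The other 3 FXYD genes had 9 to 29 reads over the WT and 10 to 22 over the *SOX2* KO embryos.

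**Figure D2:**
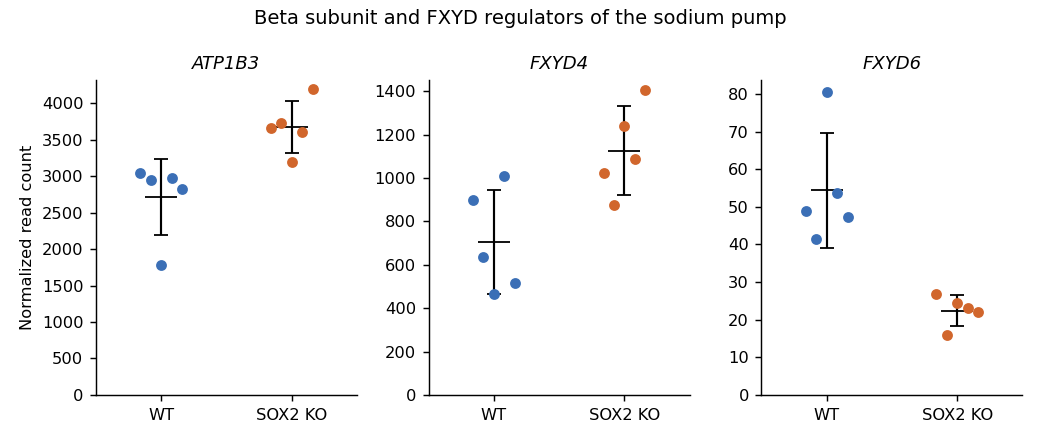
Normalized read count (linear axes from 0) of *ATP1B3*, *FXYD4* and *FXYD6* in each embryo; points are embryos, the long dash is the mean and the bar is the SD (n = 5 each). *FXYD6* lies between 41.5 and 80.5 in WT and between 15.8 and 26.7 in *SOX2* KO embryos, and the other 2 have the higher mean in *SOX2* KO embryos.

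Among the water channels, *AQP3* and *AQP11* were read well in all embryos and *AQP9* was near the limit of detection. *AQP3*, which passes water and glycerol across the basolateral membrane of epithelia, had normalized read counts of 467, 277, 519, 324 and 385 in nc1 to nc5. In ko1 to ko5 it had 379, 254, 360, 754 and 353. The embryo ko4 stood above all others, and the other 4 *SOX2* KO embryos lay within or just below the WT range. The means were 395 ± 99.4 and 420 ± 193 (SD, n = 5 each), with a log2 fold change of 0.03 ± 0.23 (SE; adjusted p = 0.951). Its 95% interval, -0.45 to 0.51, excludes a doubling and a halving on this scale. Without ko4 the log2 fold change was -0.21 (adjusted p = 0.427), and the sign of this small difference also turned under equal totals and with sample quality weights.

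*AQP11*, a distant aquaporin of intracellular membranes, had normalized read counts of 149, 97.9, 65.6, 107 and 183 in nc1 to nc5 and 128, 71.3, 117, 117 and 115 in ko1 to ko5. Of the *SOX2* KO embryos 4 sat close together, at 115 to 128, and ko2 was low, while the WT embryos spread on either side of them. The log2 fold change was -0.07 ± 0.24 (SE; 95% interval -0.58 to 0.43; adjusted p = 0.862), and its sign turned under scaling by the median log2 ratio and with the share of *RN18S1* as a covariate. The log2 ratio of *AQP3* to *AQP11* was 1.75 ± 0.71 in WT and 1.85 ± 0.47 in *SOX2* KO embryos (SD, n = 5 each; exact permutation test, two-sided, p = 0.746). The highest ratios were 2.96 in nc3, where *AQP3* was highest among WT embryos and *AQP11* lowest, and 2.67 in ko4.

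*AQP9*, another channel for water and glycerol, had 7 reads in the 5 WT and 7 in the 5 *SOX2* KO embryos. Of the WT embryos, nc3 held 5 reads and nc5 held 2, and the other 3 were at 0. In the *SOX2* KO group ko4 was at 0, and each other embryo held 1 or 2 reads. A count of 0 allows up to 3 reads in an embryo, so no difference was detectable at this depth (log2 fold change 0.54, SE 0.60, adjusted p = 0.557).

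The other aquaporins of the table were as sparse. All 8 had a mean under 10 and a log2 fold change above 0, with a median of 1.11, and 2 were called higher and none lower. The median was 0.25 over all tested genes, and that of genes this sparse was not taken. A sparse gene can also pass the filter on the mean through the *SOX2* KO embryos alone, as *AQP10* did. The shared direction of the 8 therefore says nothing of the list. *AQP2*, the channel that antidiuretic hormone controls in the collecting duct, had 2 reads in WT and 26 in *SOX2* KO embryos (adjusted p = 0.0150). *AQP10*, an intestinal channel, had 0 and 15 reads (adjusted p = 0.0235). The 14.1% called higher among genes this sparse, the higher number of genes detected and the higher share of *RN18S1* in *SOX2* KO embryos go along with these counts, and their part in them was not tested. With the share of *RN18S1* as a covariate, a setting added after the data were seen, *AQP2* and *AQP10* were no longer called (adjusted p = 0.344 and 0.195). The log2 fold change of *AQP2* was then 1.36, against 2.27 without the covariate, and that of *AQP10* 1.89, against 1.91. Over all genes 220 were called in that setting, against 2024, so the loss of a call is not particular to these 2 genes. Quantile normalization also ended both calls (adjusted p = 0.0651 and 0.170), as did a pseudocount of 5, under which the log2 fold changes were 0.96 and 0.69. *AQP10* was also lost without nc1, nc2, nc4, nc5, ko1 or ko3 (adjusted p from 0.0508 to 0.0625).

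*SLC9A3* encodes NHE3, the apical exchanger that takes up sodium against protons in kidney and intestine. It had normalized read counts of 9.16, 48.9, 4.97, 7.77 and 15.3 in nc1 to nc5 and 24.5, 38.3, 36.0, 135 and 76.1 in ko1 to ko5. Of the WT embryos 4 lay below every *SOX2* KO embryo, and nc2 lay above 3 of the 5. The means were 17.2 ± 18.1 and 61.9 ± 45.1 (SD, n = 5 each), from 86 reads in WT and 312 in *SOX2* KO embryos. The log2 fold change was 1.96 ± 0.50 (SE) with a 95% interval of 0.92 to 3.0, and the adjusted p was 0.0158. Without ko5 it was 1.82 with an adjusted p of 0.0538, and DESeq2 on the recovered reads gave 1.88 with an adjusted p of 0.0515, so the call was lost in both. Leaving out any other embryo kept it, from 1.62 without ko4 to 2.44 without nc2 (adjusted p = 0.0272 and 0.00212). In RefSeq an uncharacterized noncoding RNA gene overlaps *SLC9A3*, and without a stated strand setting its reads cannot be told apart from those of *SLC9A3*.

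**Figure D3:**
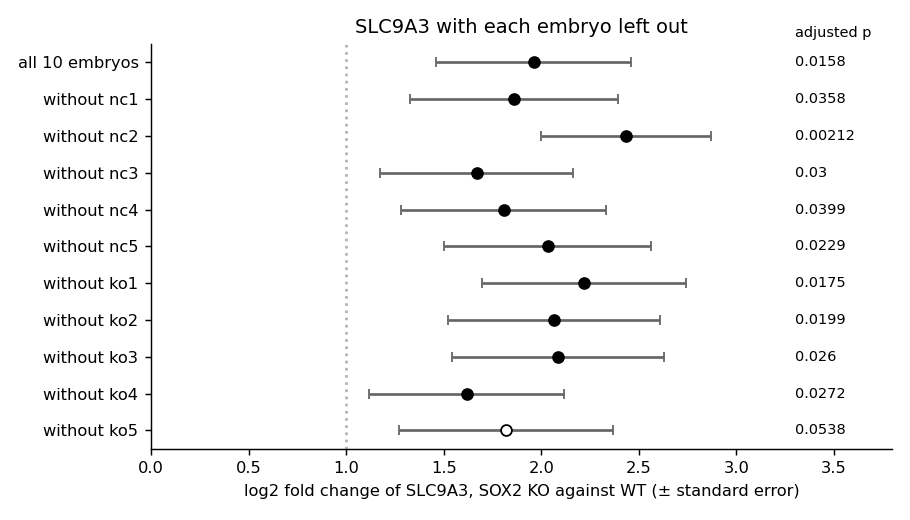
Log2 fold change of *SLC9A3* (*SOX2* KO against WT, linear axis) with all 10 embryos and with each left out; points are the limma estimate, bars the standard error, filled points have an adjusted p of at most 0.05, and the dotted line marks a 2-fold change. The estimate runs from 1.62 to 2.44, and without ko5 the adjusted p is 0.0538.

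*SLC9A3* was also the most uneven of the 5 genes averaging 10 or more. Its highest and lowest embryos differed 9.84-fold in WT and 5.50-fold in *SOX2* KO embryos, against 1.71-fold and 1.32-fold for *ATP1B3*. On the log2 scale its SD was 1.18 in WT and 0.96 in *SOX2* KO embryos, where genes with a mean from 10 to under 100 had median SDs of 0.44 and 0.44. *ATP1B2*, in the same range of levels, had SDs of 0.74 and 0.49. For tested genes averaging 100 or more the median SDs were 0.27 and 0.27, and *AQP3* had 0.37 and 0.57, *AQP11* 0.57 and 0.33, and *ATP1B3* 0.33 and 0.14.

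Other exchangers and the scaffold proteins that hold NHE3 at the apical membrane made up 14 tested genes. Of these 2 were called higher and none lower, where 8.93% and 1.16% of all tested genes were. Of their log2 fold changes 12 were above 0, with a median of 0.50 against 0.25 over all tested genes. A mean under 10 was found for 6 of the 14, and of all genes this sparse 14.1% were called higher. *SLC9B2*, a sodium-proton antiporter of the NHA branch, rose from 12.4 ± 2.33 to 37.7 ± 5.36 normalized read counts (SD, n = 5 each; log2 fold change 1.53, SE 0.30, adjusted p = 0.00315). Its groups did not overlap, with a top WT embryo at 16.3 and a lowest *SOX2* KO embryo at 31.2, and its call held in all settings run. *SLC9A3R2*, the NHERF2 scaffold of NHE3, was also called higher (adjusted p = 0.0215) on 10 reads in WT and 40 in *SOX2* KO embryos, a call lost without nc2, nc5 or ko5 (adjusted p = 0.0561, 0.0563 and 0.0636). It was also lost with edgeR (adjusted p = 0.0594), under quantile normalization (0.130) and with the share of *RN18S1* as a covariate (0.443). The more strongly read partners were not called. *SLC9A3R1*, the NHERF1 scaffold, had 1388 ± 253 and 1476 ± 226 (log2 fold change 0.09, adjusted p = 0.729, with the sign turned under equal totals), and *EZR*, the ezrin that ties such scaffolds to actin, had 7930 ± 1071 and 9914 ± 849 (log2 fold change 0.33, adjusted p = 0.270). *SLC9A8*, an exchanger of the Golgi, had 20.1 ± 8.41 and 26.0 ± 13.7 (adjusted p = 0.544).

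**Figure D4:**
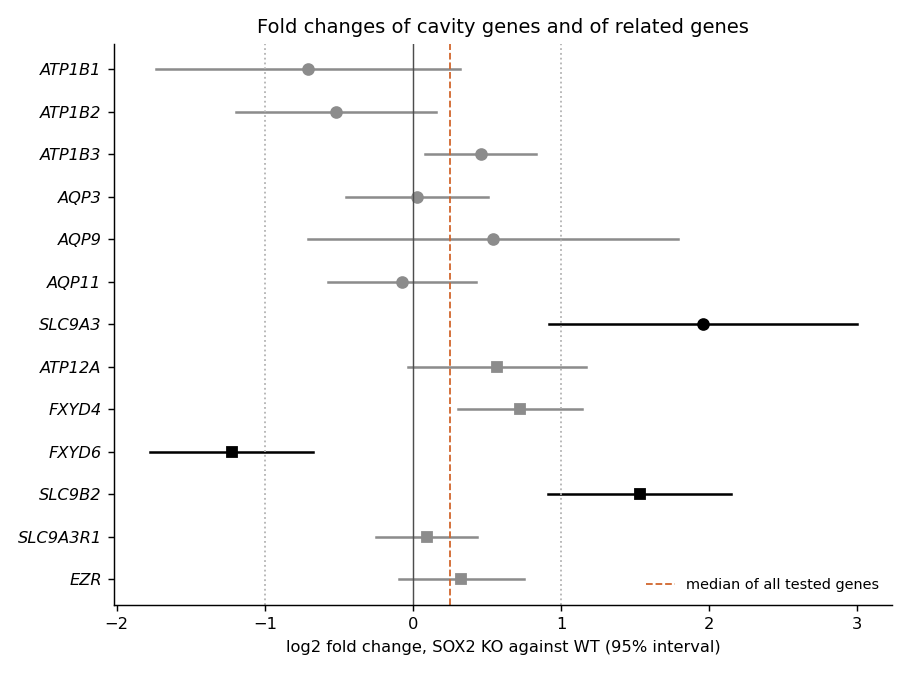
Log2 fold change (*SOX2* KO against WT, linear axis) of the 7 genes (circles) and of 6 related genes (squares); bars are 95% intervals of limma, black marks called genes, dotted lines mark 2-fold changes, and the dashed line is the median of all tested genes at 0.25. *SLC9A3* and *SLC9B2* are called higher and *FXYD6* lower.

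Of 20 other sodium, chloride and bicarbonate transporters of epithelia, 3 were called higher and 1 lower, against 8.93% and 1.16% of all tested genes, with a median log2 fold change of 0.30 against 0.25. A mean under 10 was found for 9 of the 20, and of all genes this sparse 14.1% were called higher. *SLC12A7*, a potassium-chloride cotransporter, rose from 48.2 ± 37.2 to 118 ± 42.0 (SD, n = 5 each; log2 fold change 1.53, SE 0.40, adjusted p = 0.0179), with overlap between the groups. Without ko5 it was 1.45 with an adjusted p of 0.0552, and with the share of *RN18S1* as a covariate 1.05 with 0.341. The sodium-glucose carrier *SLC5A1* (3 and 34 reads; adjusted p = 0.0197) and the chloride channel *CFTR* (2 and 32 reads; adjusted p = 0.0377) were called on few reads. Leaving out ko1 or ko5 ended the call of *SLC5A1* (adjusted p = 0.0575 and 0.0654), and leaving out nc1, nc2, nc4, nc5, ko1, ko3 or ko5 that of *CFTR* (adjusted p up to 0.116). Both calls were also lost under quantile normalization (adjusted p = 0.107 and 0.121) and with the share of *RN18S1* as a covariate (0.279 and 0.602), and that of *CFTR* with a pseudocount of 5 (0.0568). *SLC4A7*, a sodium-bicarbonate cotransporter, fell from 124 ± 36.4 to 58.6 ± 7.73 without overlap (log2 fold change -1.03, SE 0.22, adjusted p = 0.00566). Its fold was at the threshold, and without nc2, nc3, nc5, ko1 or ko4 it was under 2-fold (log2 fold change -0.91 without nc5 to -0.997 without ko4). Of 12 alternatives to the main processing, 4 also ended the call of *SLC4A7*, and its adjusted p reached 0.0845 among them. *SLC4A2*, a chloride-bicarbonate exchanger, had 170 ± 41.2 and 268 ± 54.1 (log2 fold change 0.67, adjusted p = 0.0251), short of 2-fold. *SLC12A4* and *LRRC8A*, which serve cell volume control, had log2 fold changes of 0.63 and 0.43 with adjusted p of 0.137 and 0.118.

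For the tight junction that seals the cavity, 13 genes were tested, and *PRKCI* was called lower and none higher, where 1.16% of all tested genes were called lower. *PRKCI*, the atypical protein kinase C of apical polarity, fell from 272 ± 22.0 to 134 ± 18.9 (SD, n = 5 each; log2 fold change -1.02, SE 0.16, adjusted p = 0.00043). It too was at the threshold of the fold, and without nc2, nc4, ko4 or ko5 it was just short of it (-0.95 without ko5 to -0.998 without ko4). Of 12 alternatives to the main processing, 5 also ended the call of *PRKCI*, although its adjusted p was at most 0.0187 in them. By the adjusted p alone, whatever the fold, 2 of the 13 passed upward (*CLDN4* and *CLDN7*) and 2 downward (*PRKCI* and *F11R*), against 10.4% and 3.20% of all tested genes. *CLDN4*, a sealing claudin, had 927 ± 232 and 1636 ± 225 (log2 fold change 0.85, adjusted p = 0.00633), and *F11R*, the junctional adhesion molecule A, had 720 ± 94.7 and 423 ± 52.9 (log2 fold change -0.76, adjusted p = 0.00325). *CLDN7*, another claudin, named here after its values were seen, had 65.9 ± 11.4 and 137 ± 60.7 (log2 fold change 0.96, adjusted p = 0.0173). Without ko3 or ko5 it missed the adjusted p (0.0544 and 0.0631), and with DESeq2 it was called (log2 fold change 1.05). The gene *CLDN6* had 7032 ± 1671 and 9764 ± 1297 (log2 fold change 0.49, adjusted p = 0.122), and *CDH1*, the E-cadherin of the adherens junction, had 626 ± 195 and 660 ± 139 (log2 fold change 0.11, adjusted p = 0.734, with the sign turned under equal totals).

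**Figure D5:**
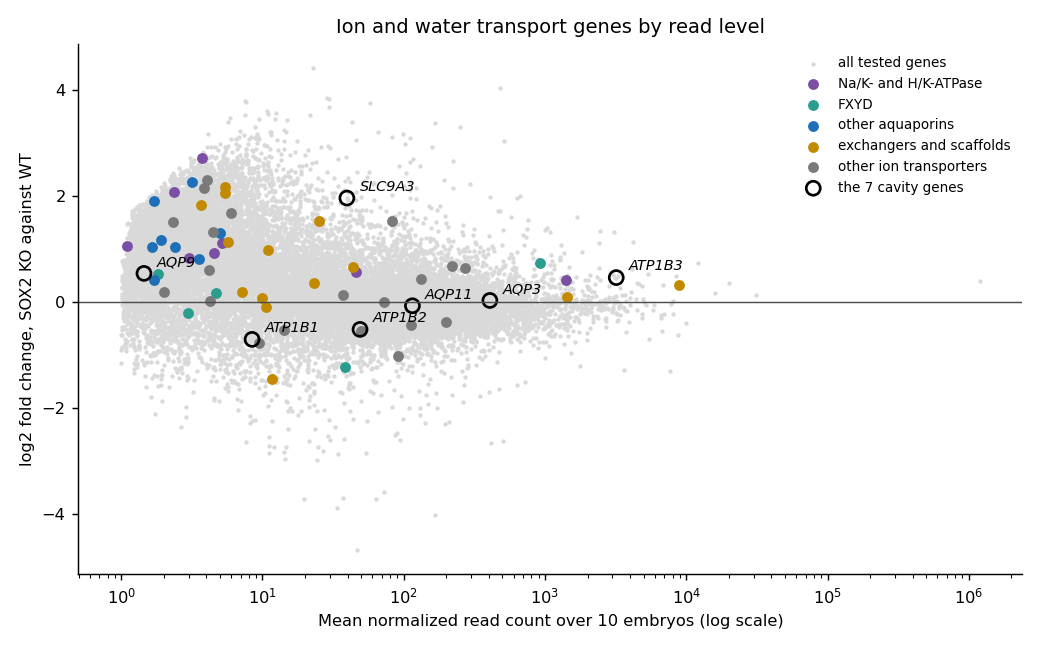
Log2 fold change (*SOX2* KO against WT) against the mean normalized read count over 10 embryos (log axis) for all tested genes (gray), 5 lists of transport genes (colours) and the 7 genes (open circles). The other aquaporins, in blue, all have a mean under 10 and lie above 0, and *SLC9A3* lies at 1.96.

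Genes whose log2 values ran most like those of *ATP1B3*, *AQP3* and *SLC9A3* over the 10 embryos were picked, as a description, where the mean was 50 or more. The values share the size factors and the *RN18S1* share of the libraries, and the highest of about 6981 correlations is high by selection. For *ATP1B3* these were *ELOVL1* (Pearson r = 0.94, Spearman rho = 0.93), an elongase of very long fatty acids, *DUSP16* (r = 0.94) and *UGCG* (r = 0.93). *ELOVL1*, like *ATP1B3*, did not overlap between the groups (361 to 548 against 645 to 879 in *SOX2* KO embryos). For *AQP3* they were *SMIM13* (r = 0.93, rho = 0.82), *ARGLU1* (r = 0.90) and *CUL1* (r = 0.90). *SMIM13* shared with *AQP3* its highest value in ko4, at 251, and its highest WT value in nc3, at 192. For *SLC9A3* they were *MRAS* (r = 0.93, rho = 0.95), a small GTPase of the Ras family, *PTGFRN* (r = 0.92) and *BIN1* (r = 0.91). *MRAS* was highest in ko4 at 147 and, within WT, highest in nc2 at 99.4, as was *SLC9A3*. None of these 9 genes was called.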

How the data were processed

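Single early blastocysts were sequenced by Smart-seq2, which amplifies polyadenylated RNA without molecular identifiers. Per the labels, the authors used Trimmomatic, HISAT2 with the assembly ARS-UCD1.2, featureCounts and DESeq2; the annotation and strand setting are not given in the sources used here. The authors deposited a normalized signal, reads per gene scaled by a DESeq2 size factor for each embryo. Each of the 201120 values was a whole multiple of the smallest step in its embryo (tolerance 1e-06), and reads were recovered from these steps. The smallest total of a gene was 11 reads. The floor of 3 reads covers counting error only. Intervals of fold changes were built from the standard errors of limma, which include the spread between embryos.

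Columns were assigned to groups by name. The *SOX2* KO columns carry other numbers than the labels and were used without replicate numbers. The labels do not say whether the embryos came from separate cultures, so p-values measure the spread between these embryos.

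Groups were compared with limma 3.58.1 (trend, no covariates) in R 4.3.3 on log2(normalized read count + 1), over 20056 genes with a mean of at least 1, with Benjamini-Hochberg adjusted p. DESeq2 1.42.0 and edgeR 4.0.16 on recovered reads and other scalings, pseudocounts and filters were alternatives. The tests were tested on simulated data. Ratios within embryos were compared by exact permutation in Python 3.11.15 with scipy 1.17.1.

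The members and gene lists were chosen with earlier results of these data known. Named were all members, every called gene of the 6 lists, up to 4 others of each by highest mean if at least 10, the marker lists and the 3 genes most correlated with *ATP1B3*, *AQP3* and *SLC9A3*. Some genes of the lists that this rule names are not reported here. Overlaps of genes were read from RefSeq ARS-UCD2.0, and no coordinates are given because the builds differ.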

Additional observations from a re-analysis of the deposited data

Results flagged for a closer look

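In 5 of 14 groups of 5 values (7 genes in WT and in *SOX2* KO embryos), the highest or lowest embryo stood apart from the rest. Its gap was more than 0.71 of the range on the linear scale of normalized read counts. For normally distributed values this rule flags about 1 in 20 groups, or 0.7 of 14. Whether these counts follow that distribution was not checked, so the 5 flags cannot be set against the 0.7. *ATP1B3* was low in nc3, at 1786 against 2819 to 3049 in the other WT embryos. *SLC9A3* was high in nc2, at 48.9 against 4.97 to 15.3. *AQP3* was high in ko4, at 754 against 254 to 379 in the other *SOX2* KO embryos, and *AQP11* was low in ko2, at 71.3 against 115 to 128. *AQP9* was at 4.97 in nc3 (5 reads) and at 0 to 1.18 in the other WT embryos.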

How the results depend on the processing

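No paired analysis was possible because the *SOX2* KO columns carry no replicate number of the labels. Of the 7 genes, 1 was called in every setting except DESeq2 and leaving out ko5, where the number was 0; with embryos left out it ranged from 0 to 1. Over all genes, 2024 were called, against 1185 with a pseudocount of 5, 1076 under quantile normalization (58.5% of them higher, against 88.5%), 692 with a mean of at least 10 (72.5% higher), 3515 with sample quality weights and 220 with the *RN18S1* share as a covariate (62.3% higher), a setting added after the data were seen. Leaving out single embryos gave 930 (without ko5) to 3316 (without ko4); without nc1, nc2, nc4 and ko1 the numbers were 1291, 1230, 1273 and 1066. The cause was not tested.

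Some log2 fold changes of genes that were not called turned their sign. *AQP3* was at -0.10 under equal totals and with weights, and at -0.21 to 0.18 with embryos left out. *AQP9* was at -0.51 under quantile normalization and -0.11 with the covariate. *AQP11* was at 0.028 under the median log2 ratio, 0.11 with the covariate and -0.27 to 0.10 with embryos left out. *SLC9A3R1* was at -0.031 and *CDH1* at -0.010 under equal totals, and *CDH1* at -0.20 with the covariate and -0.026 to 0.23 with embryos left out. The ratio of *AQP3* to *AQP11* differed by -0.10 to 0.40, and that of *ATP1B2* to *ATP1B3* by -1.30 to -0.62, with embryos left out. For 28 genes of the lists, 540 of 609 values kept direction and side of the threshold, 56 lost the call, 8 gained it and 5 turned. At this depth *AQP9* and most other aquaporins lie near the floor.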
